A study of Mus musculus with 4 samples.

Results

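Complex I and complex III of the mitochondrial respiratory chain are built mostly from nuclear genes, and 49 protein-coding genes of the mouse reference carry the family names Ndufa, Ndufb, Ndufc, Ndufs, Ndufv or Uqcr, out of 21887 protein-coding genes on the chromosomes. The members were chosen by these symbols alone, leaving out the assembly factors named Ndufaf. BRG1/BRM occupancy at these genes was taken from ChIP-seq of wild-type primary cortical neurons, prepared at E16.5 and grown for 6 days in vitro. The J1 antibody recognizes BRG1 and BRM, the alternative ATPases of BAF, a chromatin remodelling complex of the SWI/SNF family, and does not tell them apart. One group was kept at the basal KCl level and the other was depolarized with 50 mM KCl for 1 h, after tetrodotoxin (1 µM, a sodium channel blocker) and APV (100 µM, an NMDA receptor antagonist) given on day 5 to silence spontaneous activity. Whether the basal cultures also received these blockers is not stated in the labels.

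Each condition had 1 immunoprecipitated (IP) library and 1 input library, so replicate error cannot be measured for any difference between the conditions, and none is tested. The files used here list enriched regions, called islands, each with its reads in the IP and in the control and the authors' fold between them. The basal list held 711 islands with 142021 IP reads, and the KCl list held 20966 islands with 1433200 IP reads. Of the markers used to check the labelled cell type, a KCl island lay at an end of 8 of 10 cortical neuron genes, 2 of 5 astrocyte genes, 1 of 5 interneuron genes, 1 of 5 oligodendrocyte lineage genes and 0 of 5 microglia genes, and no basal island lay at an end of any of them. The share of all protein-coding genes with a KCl island there was 25.2%. The cortical neuron genes were long, with a median of 40121 bp, in a length decile where 31.1% of all genes had one. Islands show binding and not expression, so this is only a partial check of the cells.

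Complex I takes electrons from NADH and passes them to ubiquinone, and complex III passes them on to cytochrome c, and both move protons across the inner mitochondrial membrane. A small catalytic core of complex I binds the cofactors, and a larger set of accessory subunits surrounds it. Neurons depend heavily on this chain to pay for ion pumping after depolarization, and its nuclear genes are known as broadly expressed genes whose promoters are often bound by NRF1, GABP (an ETS factor) and YY1.

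The respiratory chain genes were covered by BRG1/BRM about as often as any protein-coding gene. After depolarization, 12 of the 49 members (24.5%) had at least 1 island no farther than 2 kb from either end of the gene, against 25.2% of all protein-coding genes. In the basal list 0 of the 49 members had one, against 0.411% of all genes, a background so low that a count of 0 in a group of this size carries no information on these genes. The members are short, with a median length of 7.64 kb against 17.2 kb over all genes, and the share of all genes with an island rose with length, from 5.39% in the shortest decile to 46.0% in the longest. Among all genes between the length of the shortest and the longest member the background was 22.7%, and weighting all genes to the length deciles of the members gave 20.1%. The members' share therefore lay between the backgrounds obtained with and without regard to length, within a few genes of each. Of the 12 members with an island, 6 fell in the fourth decile of length (7385 to 11661 bp), which held 12 members and had a background of 21.4%. This decile is named only because it held the most. In the third, 3 of 11 members had one (background 19.2%), in the fifth 1 of 6 (21.9%) and in the second 1 of 11 (16.6%). A window of 5 kb also gave 12 members, against 29.0% of all genes, and the 711 KCl islands with the lowest p gave 0 members, against 0.114%. Stricter rules for the basal list could only give 0 of 49 members as well. Their backgrounds were 0.0503% of all genes at an FDR of at most 1e-05, 0.0731% at a fold of at least 2 and 0.361% with the interval of the fold above 1. Windows of 1 kb and 5 kb and an overlap of at least 200 bp also gave 0, with basal backgrounds of 0.343%, 0.608% and 0.388%. Of these basal rules only the window of 5 kb could have added a member.

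**Figure D1:**
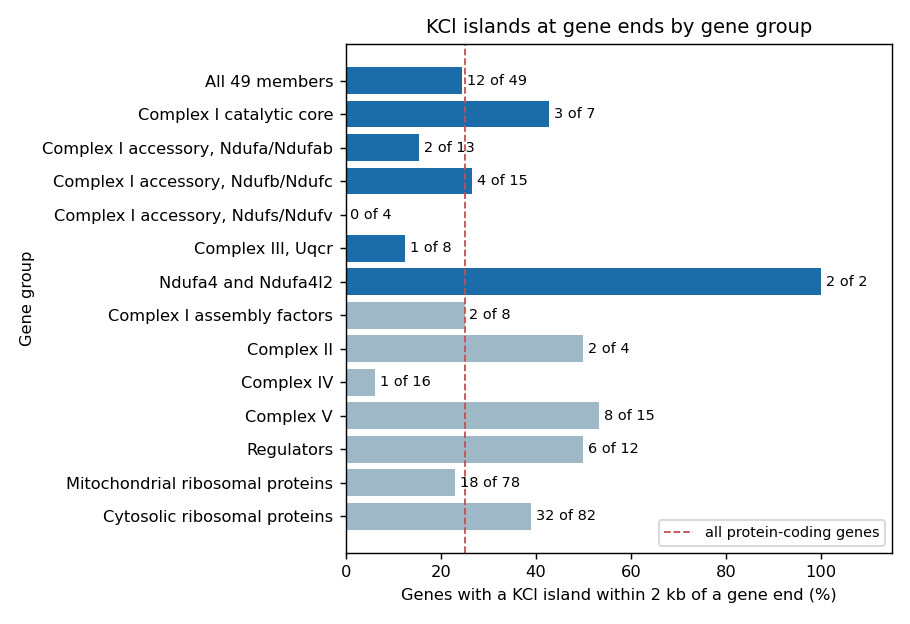
Bars give the share of genes (%) with a KCl island near an end (2 kb), with counts beside them, for the 49 members and their roles (dark) and for related gene groups (light). The dashed line is the share of all protein-coding genes, 25.2%, and the bar for all members ends at 24.5%.

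The promoters that carry these results are shown first, as the bases immediately before the listed start, read 5′ to 3′ on the gene's strand from RefSeq on GRCm38.p6. At most 250 bases are given, and fewer where the span of a neighbouring protein-coding gene begins earlier. Ndufa13, Ndufa4 and Ndufb3 had the largest folds among members whose island covered a listed start. Ndufa10 is the contrast without an island, the first by name of the members that lacked an island and matched 2 of the 6 kinds of motif searched, the most that any member matched. Ndufa5 and Ndufa8 were added after their values were seen, since both hold NRF1-type letters and 1 of them had an island. Capitals mark matches, on either strand, to an NRF1-type and a YY1-type motif and to CCGGAAG (ETS type), GGGCGG (SP1 type), TGACGTCA (cyclic AMP response element, CRE) and TGANTCA (AP-1 type).
Ndufa13, chr8:69902021-69902183, minus strand, island: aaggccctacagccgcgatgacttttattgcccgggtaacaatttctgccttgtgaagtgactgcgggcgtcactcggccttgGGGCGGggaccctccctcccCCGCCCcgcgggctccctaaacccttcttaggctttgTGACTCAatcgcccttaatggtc
Ndufa4, chr6:11907451-11907700, minus strand, island: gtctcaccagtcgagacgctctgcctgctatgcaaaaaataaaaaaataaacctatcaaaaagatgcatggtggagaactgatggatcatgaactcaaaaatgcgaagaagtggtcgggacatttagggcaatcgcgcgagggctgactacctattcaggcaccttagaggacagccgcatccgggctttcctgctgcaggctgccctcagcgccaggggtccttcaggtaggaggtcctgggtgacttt
Ndufb3, chr1:58586334-58586396, plus strand, island: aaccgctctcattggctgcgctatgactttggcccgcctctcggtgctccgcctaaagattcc
Ndufa10, chr1:92473759-92474008, minus strand, no island: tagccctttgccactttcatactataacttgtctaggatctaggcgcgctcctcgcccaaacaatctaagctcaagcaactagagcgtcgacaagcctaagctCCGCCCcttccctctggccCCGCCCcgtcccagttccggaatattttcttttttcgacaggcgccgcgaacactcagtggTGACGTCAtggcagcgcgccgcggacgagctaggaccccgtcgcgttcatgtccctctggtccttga
Ndufa5, chr6:24527691-24527940, minus strand, island: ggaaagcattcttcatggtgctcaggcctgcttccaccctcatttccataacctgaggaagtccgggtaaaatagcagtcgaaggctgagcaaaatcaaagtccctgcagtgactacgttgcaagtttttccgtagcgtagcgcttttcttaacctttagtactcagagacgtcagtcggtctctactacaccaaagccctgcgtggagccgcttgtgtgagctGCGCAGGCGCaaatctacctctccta
Ndufa8, chr2:36049339-36049472, minus strand, no island: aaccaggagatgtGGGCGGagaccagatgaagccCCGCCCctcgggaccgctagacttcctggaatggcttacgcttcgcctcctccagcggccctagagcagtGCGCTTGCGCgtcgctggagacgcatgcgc

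The windows of Ndufa4 and Ndufb3 hold none of these letters. That of Ndufa10, whose nearest KCl island lay 51.7 kb from a gene end, holds a CRE match 67 bases before the start and a pair of SP1-type matches. Ndufa10 was chosen for its matches and the windows differ in length, so no comparison between these promoters can be drawn from them. The window of Ndufa13 lies inside the span of its own gene model, which reaches beyond the listed start, and holds an AP-1-type match 23 bases before the start. In Ndufb3 the whole space to the neighbouring gene Fam126b is the 63 bases printed. The NRF1-type letters stand 26 bases before the start of Ndufa5 and 30 bases before that of Ndufa8. Letters of this kind are descriptions and not bound sites.

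Among the nuclear genes of the catalytic core of complex I, 3 of 7 had a KCl island, and their folds were low. Ndufv1 encodes the subunit that binds NADH and the flavin, Ndufv2 its iron-sulfur partner, and Ndufs7 an iron-sulfur subunit close to the ubiquinone site. The Ndufv1 island (chromosome 19, 4011401 to 4013600) held 59 IP and 25 control reads, a fold of 1.48, with a 95% exact (Clopper-Pearson) interval of 0.914 to 2.47 that lets both read counts vary. Such intervals are given in brackets from here on, and they cover counting error only. The Ndufs7 island (chromosome 10, 80247801 to 80250000) held 73 IP and 31 control reads (1.48-fold [0.959 to 2.33]). It covered the start of Ndufs7 and also a pair of tRNA genes, n-TFgaa3 and n-TNgtt7, so that the reads cannot be assigned to one of them.

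Ndufv2 was the only member with 2 islands at its ends. The island over its start (chromosome 17, 66099601 to 66102000) held 59 IP and 22 control reads (1.68-fold [1.02 to 2.89]). The other, 795 bp outside its far end (66075601 to 66078000), held 64 reads of the IP and 28 of the control (1.44-fold [0.907 to 2.33]) and covered a listed start of Ankrd12, whose span overlaps that end. The authors called the lists at an FDR of 0.01, so every listed island passes it. Among the islands of these 3 core genes, the interval excluded 1 only at the start of Ndufv2. Ndufs1, Ndufs3 and Ndufs8, also of the core, had no island within 2 kb of an end. The nearest to Ndufs3 lay 8.03 kb away.

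Of the accessory subunits named Ndufa or Ndufab, 2 of 13 had an island, and 1 of these had the largest fold of all members. Ndufa13, also called GRIM-19, encodes an accessory subunit at the base of the membrane arm that has also been studied as a partner of STAT3. Its island (chromosome 8, 69900601 to 69903000) held 58 IP and 11 control reads, a fold of 3.31 [1.72 to 7.0] at an FDR of 2.4e-14. Of all KCl islands at gene ends 4.41% had a larger fold, and of the whole KCl list 26.5% did. This island was picked as the largest in fold of the 13 at members' ends, which favours a high rank. The IP density was 24.2 reads per kb, below the median of 29.4 over islands at gene ends, and the control density of 4.58 reads per kb was below their median of 10. This fold therefore went with few control reads and not with many IP reads. The island also covered the start of Tssk6, a testis-specific kinase gene.

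Ndufa5, which encodes a subunit of the arm that faces the matrix, had an island over its start (chromosome 6, 24526401 to 24528200). It contained 54 reads of the IP and 22 of the control (1.54-fold [0.923 to 2.66]). That island covered the start of Asb15 as well. The remaining members of this set had no island within 2 kb of an end, namely Ndufa1, Ndufa2, Ndufa3, Ndufa6, Ndufa7, Ndufa8, Ndufa9, Ndufa10, Ndufa11, Ndufa12 and Ndufab1. Ndufab1 encodes the mitochondrial acyl carrier protein.

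The accessory subunits named Ndufb or Ndufc, most of which sit in the membrane arm, had an island in 4 of 15 cases. Ndufb3 had one over its start (chromosome 1, 58584601 to 58586800) that held 59 reads of the IP and 20 of the control (1.85-fold [1.10 to 3.25]). Ndufb5 had one over its start (chromosome 3, 32735201 to 32737600), with 93 IP reads, the most of any member's island, and 36 control reads (1.62-fold [1.09 to 2.45]). Both islands extended mainly outward from the member, over the starts of Fam126b and of Mrpl47, a mitochondrial ribosomal protein gene.

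Ndufb9 had the narrowest island of the members, 800 bp (chromosome 15, 58933401 to 58934200). It held 41 reads of the IP and 13 of the control (1.98-fold [1.04 to 4.03]). It was also the densest, at 51.2 IP reads per kb, and its control density, 16.25 reads per kb, was the highest of the member islands as well. This island lay where Ndufb9 adjoins Tatdn1. The Ndufb6 island (chromosome 4, 40267201 to 40270000, 78 reads of the IP and 28 of the control, 1.75-fold [1.12 to 2.80]) lay 591 bp outside the far end of that gene and covered the starts of Topors and Smim27. Its own start had none. Members of this set without an island were Ndufb1, Ndufb2, Ndufb4, Ndufb4b, Ndufb4c, Ndufb7, Ndufb8, Ndufb10, Ndufb11, Ndufc1 and Ndufc2. Ndufb4b and Ndufb4c are, by name, copies of Ndufb4, and reads from near-identical copies may not have been placed uniquely, which was not tested.

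The accessory subunits Ndufs4, Ndufs5, Ndufs6 and Ndufv3 had an island in 0 of 4 cases. Ndufs4 is the longest member, at 100 kb, and had no island in its body or within 10 kb either. Its nearest KCl island lay 144 kb from a gene end.

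In complex III, 1 of 8 genes had an island. Uqcrq encodes a small ubiquinone-binding subunit, and its island (chromosome 11, 53430201 to 53431600) held 52 IP and 14 control reads, a fold of 2.33 [1.27 to 4.56], the second largest of the members. Uqcrq overlaps one end of Gdf9, an oocyte growth factor gene, and the island covered that shared end. Uqcrc1 and Uqcrc2, which encode the core proteins, Uqcrfs1, which encodes the Rieske iron-sulfur protein, and Uqcrb, Uqcrh, Uqcr10 and Uqcr11 had none.

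Ndufa4 and Ndufa4l2 carry the family name but stand apart by function, since the Ndufa4 protein is now assigned to complex IV, and Ndufa4l2 is its paralog known for induction in low oxygen. Both had an island. That of Ndufa4 (chromosome 6, 11906401 to 11908600) held 53 IP and 17 control reads (1.96-fold [1.12 to 3.61]) and covered the starts of Ndufa4 and of Phf14, which lies 275 bp away. That of Ndufa4l2 (chromosome 10, 127511201 to 127513600) held 75 IP and 24 control reads (1.96-fold [1.23 to 3.25]) but lay inside the gene, beginning 1927 bp from one end. With a window of 1 kb it was the only member island to be lost.

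**Figure D2:**
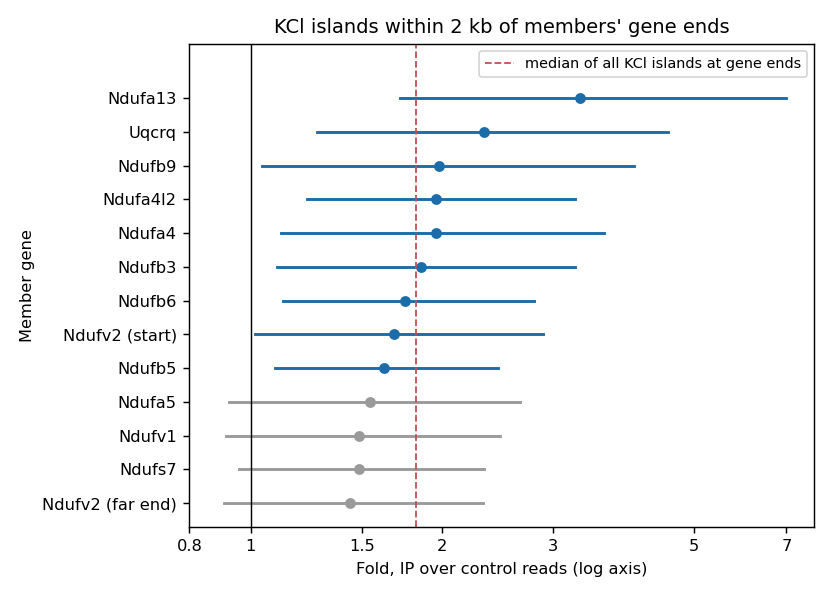
Points give the fold of IP over control reads (log axis) for the 13 KCl islands at members' ends, with lines for the 95% exact interval, in grey where it includes 1. Ndufa13 lies highest at 3.31, and the dashed line marks the median of all KCl islands at gene ends, 1.82.

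As a set, the 13 islands at members' ends resembled other islands at gene ends. Their median fold was 1.75 (range 1.44 to 3.31), and the median over all 4856 KCl islands at gene ends was 1.82. Counted by gene with the largest fold at each, the medians were 1.80 over the 12 members and 1.82 over the 5512 genes with an island. The median width was 2200 bp against 2400 bp, and the median IP density 27.9 against 29.4 reads per kb. At 9 of 13 member islands (69.2%) the whole interval exceeded 1, as it did at 76.1% of all islands at gene ends. With an FDR of at most 1e-05, 7 of 49 members kept an island, and 15.1% of all genes did. With the whole interval above 1 it was 9 of 49, against 19.2%, with a window of 1 kb 11, against 23.5%, and with an overlap of at least 200 bp 11, against 24.9%. Requiring a fold of at least 2 left Ndufa13 and Uqcrq, 2 of 49 members, against 8.74% of all genes.

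Many of these islands lay where genes adjoin. Of the 13 islands, 9 were also within 2 kb of an end of a protein-coding gene outside the group (69.2%), compared with 17.7% of all KCl islands at gene ends that were near the ends of 2 or more genes. The members themselves are closely packed, with another protein-coding gene's end within 2 kb of their own in 34 of 49 cases (69.4%), against 32.2% of all genes. All 12 members with an island were among these 34 (35.3%), and 0 of the 15 other members had one. Over all genes the shares were 31.5% for genes with such a neighbour and 22.2% for genes without. Leaving out islands shared with an outside protein-coding gene kept Ndufs7, Ndufv1, Ndufv2 and Ndufa4l2, 4 of 49 members. Leaving out islands near an end of any other protein-coding gene kept 17.6% of all genes. These 4 members are the same under either wording, since no island was shared between members. The Ndufs7 island counts as unshared because only protein-coding genes were considered, though it covered a pair of tRNA genes. Listed starts of outside genes lay inside the islands of Ndufb3, Ndufb5, Ndufb6, Ndufa4, Ndufa5 and Ndufa13 and inside the far-end island of Ndufv2. The split by neighbours was chosen after the data were seen.

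**Figure D3:**
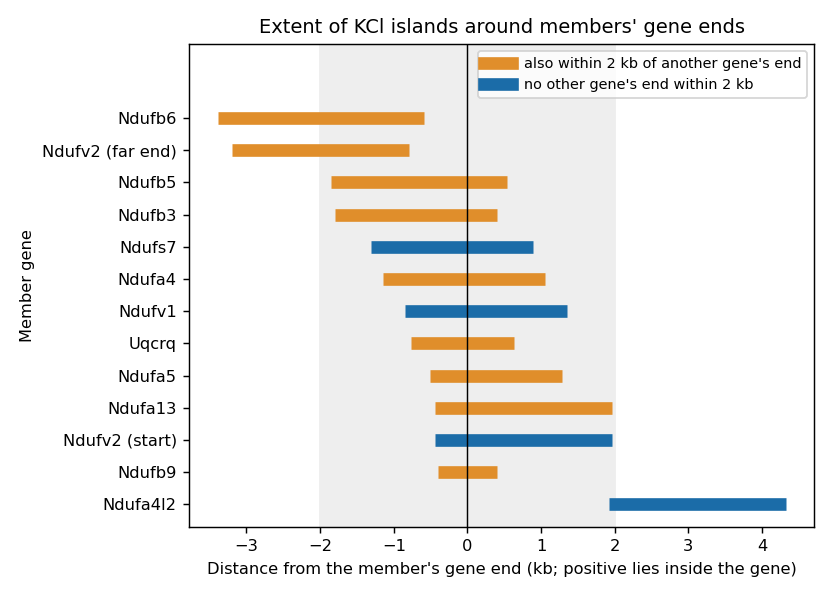
Bars show how far each of the 13 KCl islands reached on either side of the member's gene end (kb, positive inside the gene), orange where another protein-coding gene's end was also within 2 kb and blue where it was not. The grey band is the window of 2 kb, and 9 of the 13 islands are orange.

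Base composition and motif letters were examined in the 40 members with a promoter entry, 250 bases before to 50 after the outermost listed start. A KCl island lay within 2 kb of a listed start in 8 of these 40 members (20%), against 24.0% of all genes with an entry. Promoters were called CpG-rich, after the data were seen, at a CpG observed over expected ratio of at least 0.6 and a G+C content of at least 50%. This held for 30 of 40 member promoters (75%) and for 45.8% of all. Across all genes CpG-rich promoters had an island at the start in 40.0% of cases and other promoters in 10.6%. Among the members, 8 of 30 CpG-rich promoters (26.7%) and 0 of 10 others did. Within each of these classes the members' share was thus the smaller one, by a few genes.

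**Figure D4:**
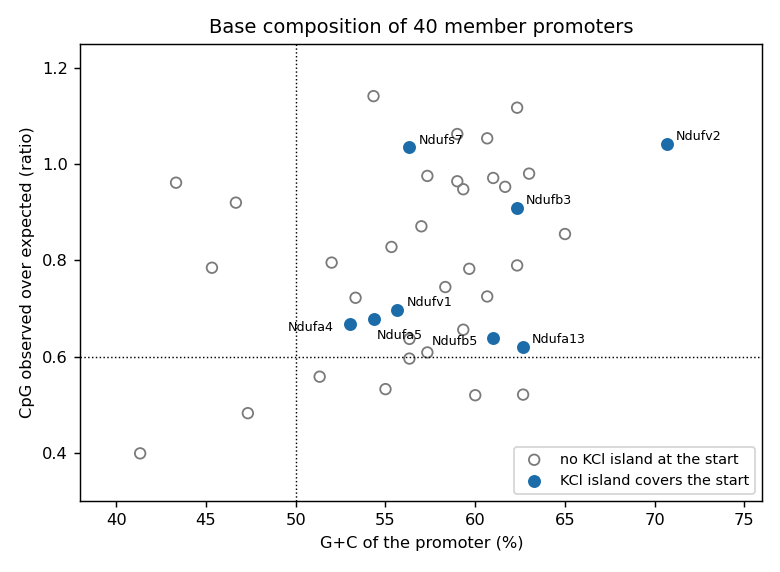
Each point is 1 of 40 member promoters by G+C content (%) and CpG observed over expected ratio, filled where a KCl island covers the start. Dotted lines mark 50% and 0.6, and all 8 filled points lie above both lines.

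NRF1-type letters were found in 8 of 40 member promoters (20%) and in 6.66% of all promoters, and YY1-type letters in 4 of 40 (10%) and 1.27%. ETS-type letters were found in 6 of 40 (15.0%) and 11.9%, SP1-type letters in 15 of 40 (37.5%) and 46.3%, CRE letters in 4 of 40 (10%) and 2.33%, and AP-1-type letters in 3 of 40 (7.50%) and 7.03%. The members with NRF1-type letters were Ndufa5, Ndufa6, Ndufa8, Ndufa11, Ndufb4, Ndufs5, Ndufs6 and Uqcrc1, and of these only Ndufa5 had an island at the start, 1 of 8, whereas 38.5% of all promoters with these letters did. ETS-type letters stood in the promoters of Ndufs3, Ndufs8, Ndufb6, Ndufb7, Uqcrh and Uqcr11, 0 of 6 of which had an island at the start, against 28.3% of all promoters with them. YY1-type letters stood in those of Ndufs4, Ndufs6, Ndufs7 and Ndufa9, with an island at Ndufs7 only, against 37.4%. CRE letters stood in those of Ndufa10, Ndufa11, Ndufb2 and Uqcrfs1, 0 of 4 with an island, against 36.4%. SP1-type letters went with an island at the start in 3 of 15 members (20%), Ndufa5, Ndufa13 and Ndufv2, against 36.4%. The SP1-type match of Ndufa5 is not in its printed window, since the search also covered the 50 bases after the start. AP-1-type letters went with an island at the start in Ndufa13 alone, 1 of 3, against 14.6%. These counts are too small to read as a property of the members.

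Away from gene ends, 15 of 49 members (30.6%) had a KCl island anywhere between 10 kb before and 10 kb after the gene, against 38.9% of all genes, and 0 of 49 had a basal one, against 1.68%. The 3 members added by the wider window were Ndufs3, Ndufb1, with an island 9.30 kb away (2.08-fold [1.23 to 3.68]), and Ndufa8, with a narrow one 9.86 kb away (chromosome 2, 36059201 to 36059800) that held 45 IP and 3 control reads (9.42-fold [3.02 to 47.4]). The median distance from a member's gene end to the nearest KCl island was 27.3 kb, and over all genes it was 31.2 kb. Within 50 kb there was one for 28 members (57.1%), against 58.7% of all genes. Ndufa1 on the X chromosome was the farthest member, at 532 kb, and Ndufb4b followed at 318 kb.

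Basal islands were far from the members, as they were from protein-coding genes in general. The median distance was 1.5 Mb, against 1.93 Mb over all genes, and the largest was 10.5 Mb, at Ndufb11. Basal islands lay within 50 kb of 4 of 49 members (8.16%), against 2.52% of all genes. These were Ndufa8 at 10.1 kb (7.05-fold [2.72 to 23.2]), Uqcrc2 at 23.7 kb (2.57-fold [1.54 to 4.4]), Uqcrb at 29.4 kb (2.90-fold [1.65 to 5.32]) and Ndufs7 at 41.6 kb (1.43-fold [0.956 to 2.16]). The basal island near Ndufa8 overlapped the KCl island near it and lay inside the adjoining gene Morn5. A missing call in either list is not a measured absence of binding, since reads outside islands were not analysed here.

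**Figure D5:**
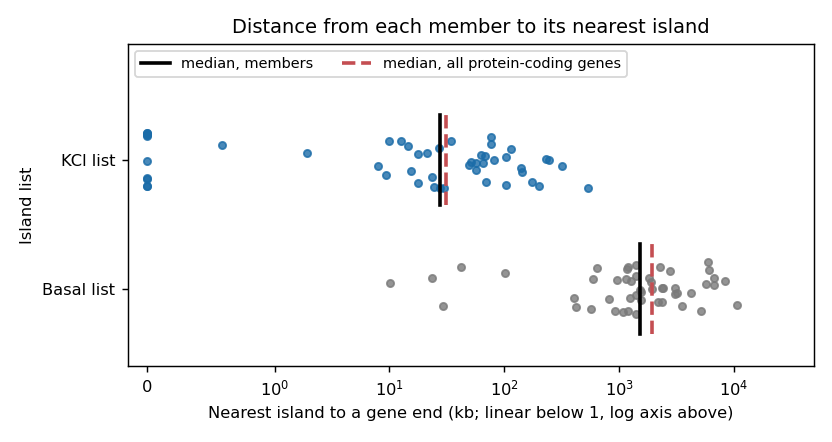
Each point is 1 of 49 members, placed by the distance (kb, log axis above 1) from a gene end to the nearest island of the KCl or the basal list. Solid bars are the members' medians, 27.3 kb and 1.5 Mb, and dashed bars those of all protein-coding genes.

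The other genes of the chain differed in their counts, from lists that were small. Complex V, the ATP synthase, had a KCl island at the ends of 8 of 15 genes matched, led by Atp5d (2.65-fold [1.74 to 4.15]), Atp5l (2.18-fold [1.21 to 4.16]) and Atp5g3 (1.72-fold [1.08 to 2.80]), while 3 listed names were not matched. Complex II had one at 2 of 4 genes, Sdha (1.54-fold [1.00 to 2.42]) and Sdhb (1.43-fold [0.975 to 2.13]). In complex IV 1 of 16 genes, Cox4i1, had one at a gene end (2.13-fold [1.32 to 3.55]), while 2 of the 12 genes with a promoter entry had one at a listed start and 6 of 16 had one in the body or the 10 kb around it. Cyc1, the cytochrome c1 gene of complex III, and Cycs, the cytochrome c gene, had none.

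Assembly factors of complex I had an island in 2 of 8 cases, Ndufaf4 (1.75-fold [1.14 to 2.78]) and Ndufaf3 (1.64-fold [0.979 to 2.86]). Among regulators of mitochondrial genes, 6 of 12 had one, with the largest folds at Ppargc1a, the coactivator PGC-1α (1.69-fold [1.24 to 2.33]), Tfb2m, a mitochondrial transcription factor (1.64-fold [0.979 to 2.86]), and Gabpa (1.62-fold [1.12 to 2.39]). Mitochondrial ribosomal protein genes had one at 18 of 78 (23.1%), close to the members' share, and cytosolic ribosomal protein genes at 32 of 82 (39.0%). In the basal list none of the chain, assembly or regulator genes had an island at an end. The differences between these lists were not tested. For counts of KCl islands at gene ends the background is the 25.2% given above. It is 24.0% at listed starts and 38.9% in the body or the 10 kb around it. None of these shares is adjusted for length. Median lengths were 3179 bp for cytosolic ribosomal protein genes and 32619 bp for regulators. The length deciles that hold these medians had backgrounds of 16.6% and 27.2% at gene ends.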

How the data were processed

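ChIP-seq with the J1 antibody was available for 1 basal and 1 KCl IP library, grouped by their titles, and the input libraries were not analysed here. Which library gave the control reads of each list is not given in the sources used here. The submitters' processing notes name BWA, with no version, SICER 1.0 and the build mm10 (GRCm38). The window of 200 bp, gap of 600 bp and FDR of 0.01 are those in the names of the deposited lists. Each list was called on 1 library, not on pooled samples. The authors deposited, for each island, unnormalized read counts of IP and control, a p-value with its FDR, and a fold, the ratio of these counts over a library constant (0.880 basal, 1.59 KCl). Total depth is not given in the sources used here.

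Positions were converted to 1-based. With Python 3.11.15, islands overlapping by at least 1 bp a window of 2 kb around either end of a RefSeq gene (GRCm38.p6) were counted for all 21887 protein-coding genes. Strand and starts came from the RefSeq promoter table, which matched 40 of 49 members. Fold intervals are exact binomial (scipy 1.17.1) with both counts varying. The counting and the intervals were tested on simulated data. The simulated counts were not selected for enrichment as the islands were, so the intervals of selected islands were not checked. Members are named, apart from an item that is not reported here, and up to 3 genes by KCl fold in each other list of the chain. Members and lists were chosen with earlier results of these data known. The ribosomal lists and the splits by neighbour and CpG content were added after the data were seen.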

Additional observations from a re-analysis of the deposited data

How the results depend on the processing

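The count of members with a KCl island at a gene end was 12, against 25.2% of all genes, whose share under each rule follows in brackets. It fell to 7 with an FDR of at most 1e-05 (15.1%) and to 2 with a fold of at least 2 (8.74%). Without islands near an end of a protein-coding gene outside the group it was 4 (17.6% of all genes without islands near another gene's end). With only the KCl islands of lowest p, as many as the basal list holds, it was 0 (0.114%). The count was 9 with the interval of the fold above 1 (19.2%), 11 with a window of 1 kb (23.5%) and 12 with 5 kb (29.0%). With an overlap of at least 200 bp it was 11 (24.9%). With the gene body and 10 kb around it the count was 15 (38.9%), and with listed starts only it was 8 of 40 (24.0%). Without Ndufa4, Ndufa4l2, Ndufb4b and Ndufb4c, an alternative chosen after seeing the data, it was 10 of 45. The basal count was 0 under each of the 9 alternatives run for it. The stricter cutoffs, the window of 1 kb, the overlap rule and the removal of shared islands could only give 0. Only the window of 5 kb, the gene body with 10 kb and the listed starts could have added members. At the low basal backgrounds given above, counts of 0 in a group of this size say little about these genes. The median KCl fold over members ran from 1.75 to 1.96. No paired analysis was possible because each condition had 1 library, and for the same reason no library could be left out. Islands of few reads limit the folds, whose intervals are wide at every member.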
